A study of Mus musculus with 2 samples.

Results

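Cholesterol handling genes were followed across the stromal cells of epididymal white adipose tissue (eWAT) of mice on a low or a high fat diet. The set was chosen by name and held 8 of the 27998 genes in the count tables: Apoe, Abca1, Abcg1, Nr1h3, Soat1, Sqle, Insig1 and Srebf2. All 8 were counted in both libraries. The stromal vascular fraction is what remains of fat after enzymatic digestion once the floating adipocytes are gone, and it was profiled by droplet-based single-cell RNA sequencing with 10x Chromium 3′ v3 chemistry. There was 1 library from C57BL/6 mice on a low fat diet (LFD) and 1 from C57BL/6 mice on a high fat diet (HFD). Both diets lasted 24 weeks from 6 weeks of age, the tissue was digested with the same kit, and the methods describe the mice as males of the C57BL/6J substrain and name no engineered allele for them. How many mice were behind each library was not given in the sources used here. With 1 library per diet there were no replicates, so diet and library cannot be told apart. Differences are described by their size and counting interval alone, without a test.

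Cells hold free cholesterol within narrow limits. Srebf2 encodes the transcription factor that turns on synthesis and uptake when sterols are low, Insig1 encodes the membrane protein that retains it in the endoplasmic reticulum when sterols are high, and Sqle encodes squalene epoxidase, a controlled step of the synthesis itself. In the other direction, Nr1h3 encodes liver X receptor α, a receptor for oxysterols. Its best known targets are the efflux pumps Abca1 and Abcg1 and the lipoprotein Apoe, which accepts the exported lipid. Soat1 encodes the enzyme that esterifies surplus cholesterol for storage in droplets. Cd9, a tetraspanin, and Trem2, a lipid receptor, are known to mark macrophages of obese fat.

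Abca1 and Soat1 are shown first because, in counts summed over all macrophages, Abca1 was lower and Soat1 higher on HFD than on LFD. Insig1 and Srebf2 are shown because they form the sterol control loop. The stretches are from RefSeq on GRCm38.p6 (mm10), read 5′ to 3′ along the gene, and end where the GENCODE gene begins. Of the 8 genes, 6 were matched in the promoter table. Capitals mark matches on either strand to the CCAAT box, the GC box GGGCGG, the E box CACGTG, the sterol element core TCACNCCAC or the direct repeat that the receptor binds. The repeat was searched as AGGTCA given again after 4 bases and, chosen after the sequences were seen, as GGTNA given again after 5 bases.
Abca1, chr4:53159896-53160145, minus strand: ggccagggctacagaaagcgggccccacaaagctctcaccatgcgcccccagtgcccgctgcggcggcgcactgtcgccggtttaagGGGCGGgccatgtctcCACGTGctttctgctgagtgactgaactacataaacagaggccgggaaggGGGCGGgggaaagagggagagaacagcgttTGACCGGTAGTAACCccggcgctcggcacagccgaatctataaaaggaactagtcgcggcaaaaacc
Soat1, chr1:156474332-156474578, minus strand: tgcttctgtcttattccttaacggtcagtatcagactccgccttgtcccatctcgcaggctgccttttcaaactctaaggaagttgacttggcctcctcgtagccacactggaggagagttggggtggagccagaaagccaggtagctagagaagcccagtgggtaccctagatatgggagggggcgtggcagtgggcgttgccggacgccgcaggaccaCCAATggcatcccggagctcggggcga
Insig1, chr5:28071162-28071362, plus strand: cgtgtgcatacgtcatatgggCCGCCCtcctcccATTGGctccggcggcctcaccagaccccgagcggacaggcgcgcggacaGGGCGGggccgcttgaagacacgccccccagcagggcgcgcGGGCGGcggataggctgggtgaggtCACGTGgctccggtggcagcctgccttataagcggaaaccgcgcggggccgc
Srebf2, chr15:82147019-82147180, plus strand: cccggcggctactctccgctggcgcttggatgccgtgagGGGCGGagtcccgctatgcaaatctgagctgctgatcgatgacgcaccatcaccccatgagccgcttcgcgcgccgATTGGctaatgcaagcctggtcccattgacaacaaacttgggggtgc

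The Abca1 stretch held the relaxed repeat 67 bases before the start site, CACGTG 147 bases before it, and GGGCGG 97 and 163 bases before it. Among all 32851 promoters in the table, which span 250 bases before the start to 50 after it, 0.718% held the relaxed repeat and 0.0152% the strict one. Insig1 carried CACGTG as well, which 7.15% of all promoters held. CCAAT stood 216, 135 and 30 bases before the starts of Insig1, Srebf2 and Soat1, and was in 37.4% of all promoters. GGGCGG was in 35.7% of all promoters, and TCACNCCAC in 1.24% of them and in 0 of the 9 member promoters. A match is only a run of letters, and no binding was measured.

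The LFD library held 1113 barcodes and 7356278 unique molecular identifiers (UMIs, each 1 captured transcript), and the HFD library 1144 barcodes and 8412325 UMIs. No barcode was shared. Barcodes with at least 200 genes numbered 1057 and 1117, and were classed by raw UMIs, summed where several genes are named: Dcn of at least 10 for fibroblasts, Cdh5 and Cldn5 of at least 3 for endothelial cells, Rgs5, Kcnj8, Abcc9 and Notch3 of at least 5 for mural cells, and the C1q genes of at least 10 for macrophages. This gave 377 LFD and 291 HFD fibroblasts, 98 and 115 endothelial cells, and 230 and 321 macrophages. Macrophages with a Cd9 UMI numbered 4 on LFD and 117 on HFD, so LFD values for Cd9-positive macrophages rest on 4 cells and are not compared. Barcodes of more than 1 rule, 65 and 120, were left out. Of these, 51 and 92 met the endothelial and the mural rule and no other, whereas the mural rule alone took in 5 and 6 cells. The former were therefore described as a group of their own, a choice made after the data were seen. All 6 listed markers of fibroblasts (such as Col1a1), of endothelial cells (such as Pecam1) and of macrophages (such as Adgre1) had UMIs in their class on both diets. This alone does not tell classes apart, since all 6 endothelial markers also had UMIs in LFD fibroblasts. Summed levels, in CPM (UMIs per 1000000 UMIs of the class), did differ. Fibroblast markers stood at 8548 LFD and 16759 HFD CPM in fibroblasts, against 32.6 and 85.2 in endothelial cells. Endothelial markers stood at 8078 and 8624 in endothelial cells, against 19.3 and 15.7 in fibroblasts. Macrophage markers stood at 5443 and 3918 in macrophages, against 64.6 and 63.2 in fibroblasts. Mesothelial markers summed to 631 LFD and 337 HFD CPM in the fibroblast class, so it was not pure.

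Levels below are in CPM, with the exact Poisson 95% interval in parentheses where one is given. Ratios are HFD over LFD with an exact conditional binomial interval. Both intervals cover counting error only, not differences between mice, and levels were not compared between genes because UMIs were not scaled for length. In all barcodes together, Abcg1 was 2.33-fold higher on HFD (17.6 against 41.0 CPM) and Soat1 2.23-fold higher (27.6 against 61.6 CPM), and the other 6 genes differed by less than 2-fold. The 2 genes at least 2-fold higher stood against 2.33% of all genes with at least 50 UMIs, and the 0 genes at least 2-fold lower against 4.39%. Whole-library values mix cell numbers with levels per cell. On HFD, Cd9-positive macrophages alone held 52.6% of Abcg1 UMIs (181 of 344) and 51.6% of Soat1 UMIs, beside 18.9% of the UMIs of all genes.

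**Figure D1:**
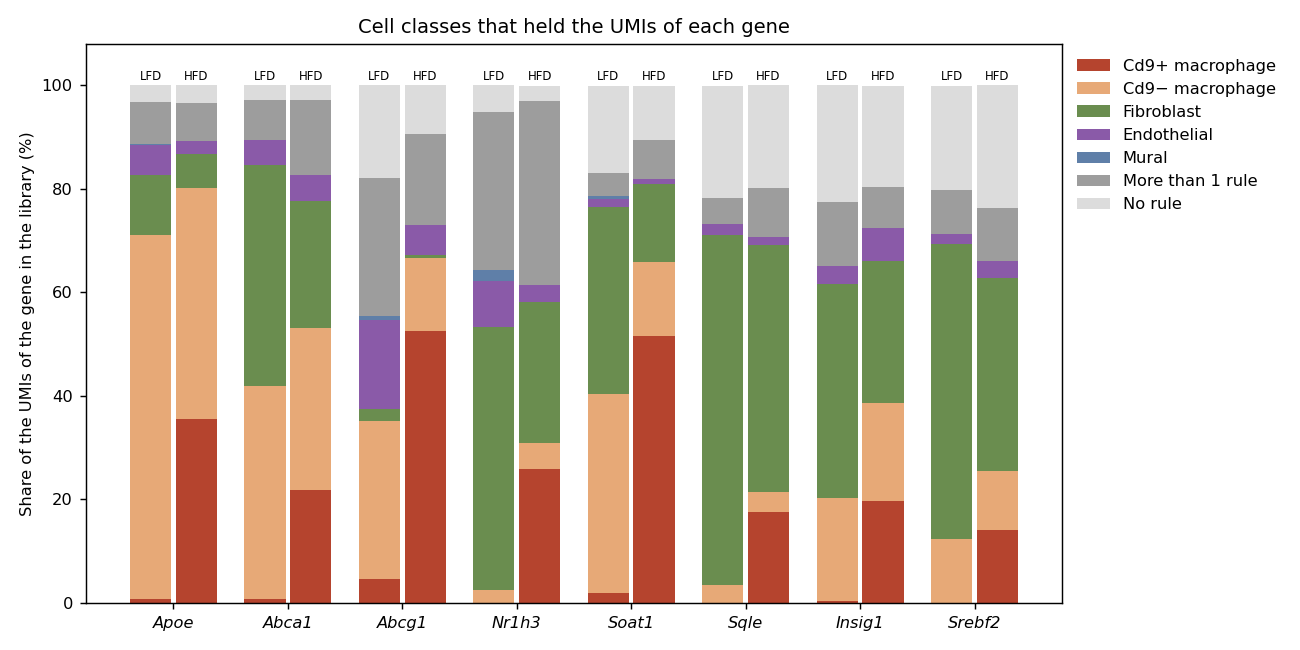
Stacked bars give the share of the UMIs of each gene held by each cell class (y axis, percent of the UMIs in barcodes with at least 200 genes), with LFD left and HFD right for each gene. Cd9-positive macrophages held 52.6% of Abcg1 and 51.6% of Soat1 UMIs on HFD, whereas fibroblasts held the most Sqle and Srebf2 UMIs on both diets. Of the UMIs of all genes, Cd9-positive macrophages held 18.9% on HFD, and fibroblasts 43.4% on LFD and 28.9% on HFD.

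Apoe was most abundant in macrophages. Cd9-negative macrophages had 11518 CPM on LFD and 13681 on HFD, and Cd9-positive macrophages had 9172 on HFD. Endothelial cells followed with 2504 and 2097 CPM, barcodes of the endothelial and mural rules with 1762 and 1652, and fibroblasts came last of these groups with 864 and 1110. No neighbouring intervals in this order of summed counts overlapped on either diet. On HFD the order of the Cd9 groups turned with the study's own cell filter, given below, to 9308 CPM in Cd9-negative and 17790 in Cd9-positive macrophages. T cells (at least 2 UMIs of Cd3d, Cd3e and Cd3g and no other rule met), which should lack Apoe, had a UMI of it in 8 of 72 LFD cells (11.1%) and 1 of 21 HFD cells (4.76%), at median depths of 2764.5 and 1781 UMIs. After thinning every cell to 1000 UMIs the share was 4.35% in LFD T cells, 29.0% in LFD fibroblasts and 42.2% in HFD fibroblasts, so the fibroblast signal stood above that background. Unthinned, the fibroblast shares were 45.9% and 58.4%. Single cells varied widely: the median Cd9-positive macrophage on HFD had 7194 CPM and the upper decile 37209, against 12263 and 28934 in Cd9-negative ones.

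**Figure D2:**
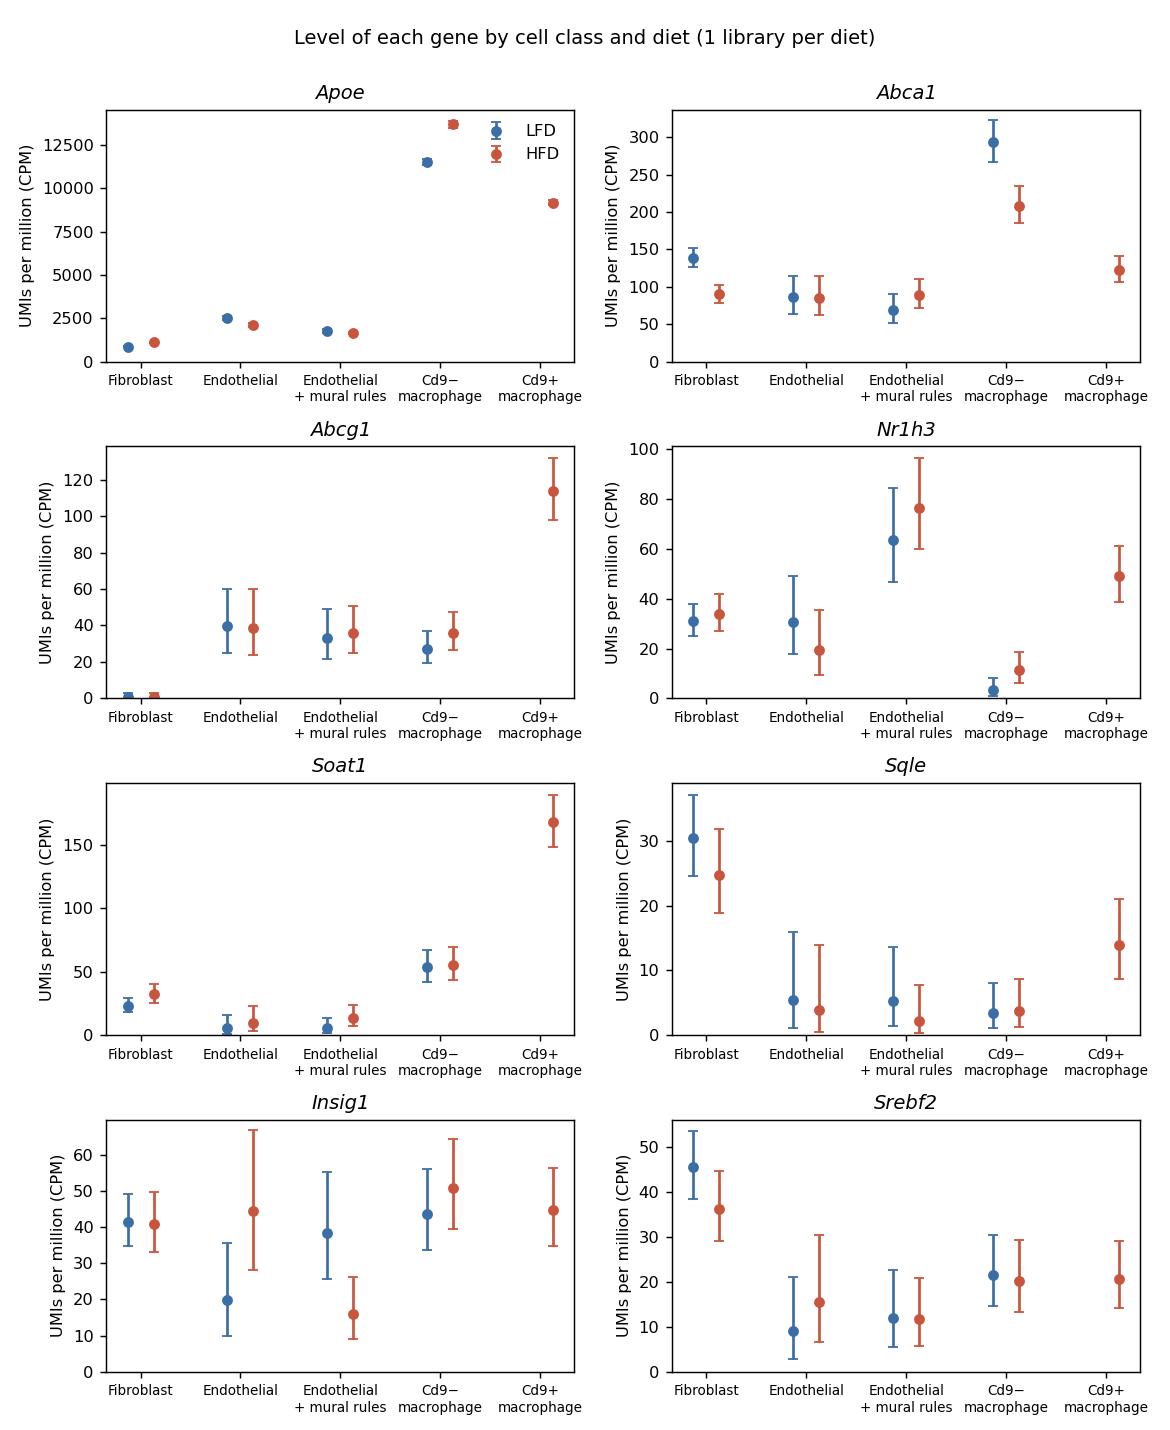
Each panel gives 1 gene and each point the level of a cell class in 1 library, in CPM (y axis), with LFD and HFD side by side and bars for the exact Poisson 95% interval. Apoe was highest in macrophages on both diets, and Abcg1 and Soat1 reached 114 and 168 CPM in Cd9-positive macrophages on HFD.

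Across diets, Apoe was 1.29-fold higher on HFD in fibroblasts (1.22 to 1.36) and 1.19-fold higher in Cd9-negative macrophages (1.16 to 1.21). In endothelial cells it was lower, at 0.837 of the LFD level (0.773 to 0.907). In those endothelial cells adipocyte markers stood at 1274 CPM on LFD and 405 on HFD and haemoglobin genes at 5853 and 8006, and their part in the Apoe value was not tested. All macrophages together, with the Cd9-positive cells, gave a ratio of 0.996 (0.978 to 1.01), but 1.23 (1.18 to 1.30) after thinning and 1.14 (1.09 to 1.19) with the study's filter, so no direction is read for them. With the study's own filter on cells, given below, the ratio in Cd9-negative macrophages turned to 0.827. The whole-library ratio of 1.51 was larger than those of fibroblasts, endothelial cells and macrophages. The fibroblast class was itself mixed: fibroblasts with Pi16 or Dpp4, markers of adventitial progenitors, had 449 CPM of Apoe on LFD and 505 on HFD, and those without either gene had 1669 and 1700. Within these groups the diet ratios were 1.13 (1.01 to 1.25) and 1.02 (0.956 to 1.09), and cells with Pi16 or Dpp4 numbered 227 of 377 fibroblasts on LFD and 132 of 291 on HFD. The part of the makeup of the class in its Apoe ratio was not tested beyond these values.

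Abca1, the pump that loads cholesterol onto lipid-poor apolipoproteins, was lower on HFD in macrophages and fibroblasts. Cd9-negative macrophages had 294 CPM on LFD (267 to 323) and 208.5 on HFD (185 to 235), a ratio of 0.710 (0.608 to 0.828), or 0.352 (0.214 to 0.561) with the study's filter. All macrophages gave 0.560 (0.490 to 0.639) and fibroblasts, at 139 and 90.0 CPM, gave 0.648 (0.548 to 0.764). The intervals of both diets were thus apart in these classes. Cd9-positive macrophages on HFD had 123 CPM (106 to 141), and barcodes of the endothelial and mural rules had 68.9 and 89.3. In endothelial cells the levels of 86.8 and 85.2 CPM gave 0.981 (0.637 to 1.51), an interval that leaves room for a difference in either direction. The share of Cd9-negative macrophages with an Abca1 UMI was 76.5% on LFD and 53.4% on HFD, and 24.4% and 12.3% after thinning.

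Abca1 was also read within Cd9-negative macrophages. Cells with Timd4, a receptor of resident macrophages, had 329.8 CPM on LFD and 314.5 on HFD, a ratio of 0.954 (0.717 to 1.26), and Cd9-negative cells without it had 273 and 186 CPM, a ratio of 0.679 (0.562 to 0.820). Timd4 was detected in 78 of 226 Cd9-negative macrophages on LFD and 32 of 204 on HFD, and this grouping was made after the data were seen. The difference between both ratios was not tested. Genes that tissue digestion switches on (Fos, Jun, Egr1 and 5 others) moved with the same contrast. Their summed level was 10733 CPM in LFD and 7562 in HFD Cd9-negative macrophages, 10624 and 5957 in all macrophages, and 15125 and 13554 in fibroblasts. In cells above the median of that sum, a division also made after the data were seen, the Abca1 ratio was 0.981 (0.786 to 1.22) in Cd9-negative macrophages and 0.798 (0.663 to 0.959) in all macrophages, and in cells below it 0.660 (0.520 to 0.839) and 0.552 (0.442 to 0.693). In fibroblasts it was 0.688 above and 0.612 below. Fibroblasts with Pi16 or Dpp4 gave 0.755 (0.609 to 0.931, 143 and 107.9 CPM) and those without 0.553 (0.419 to 0.726, 131 and 72.6 CPM), so Abca1 was lower on HFD in both. The part of digestion in the Abca1 difference was not tested beyond these values.

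**Figure D3:**
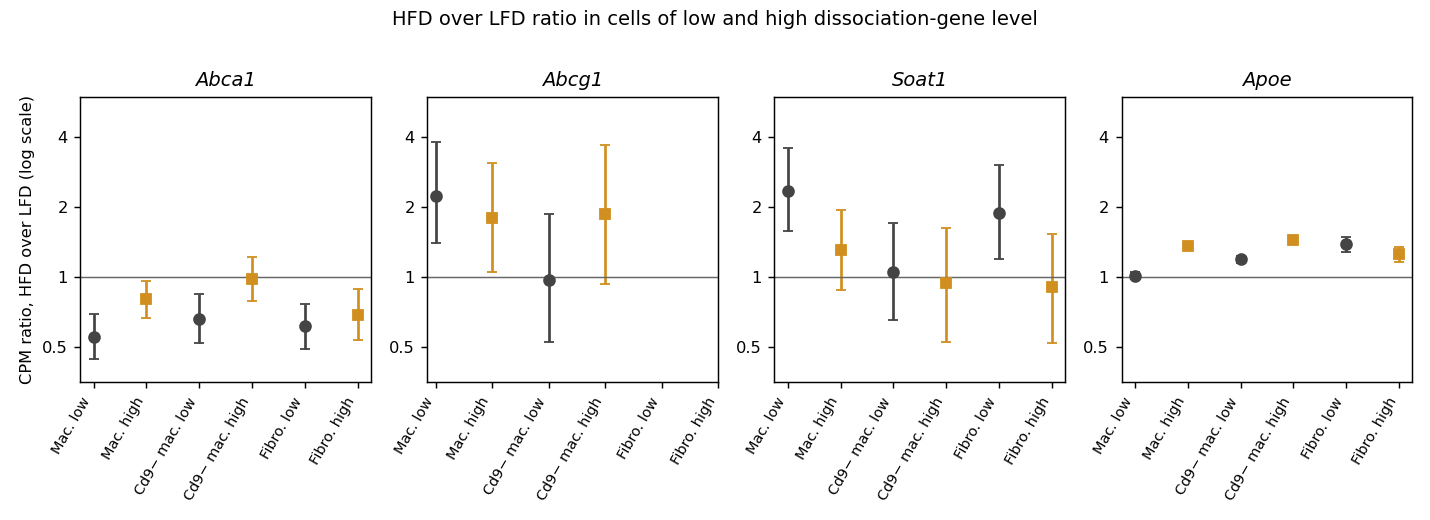
Points give the HFD over LFD ratio of CPM (y axis, log scale) in cells below and above the median summed level of 8 digestion-responsive genes, by gene and cell class, with bars for the exact 95% interval. The Abca1 ratio in Cd9-negative macrophages was 0.660 in the lower group and 0.981 in the upper one.

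Abcg1, which exports cholesterol to high-density lipoprotein, had a different distribution. Cd9-positive macrophages on HFD had 114 CPM (97.9 to 132) from 181 UMIs. The other groups of at least 50 cells were lower: endothelial cells had 39.8 CPM on LFD and 38.7 on HFD, barcodes of the endothelial and mural rules 33.1 and 36.1, and Cd9-negative macrophages 27.1 and 35.9, and these 3 overlapped. Fibroblasts had 3 UMIs on LFD and 2 on HFD, or 0.949 and 0.826 CPM. All macrophages together were 2.58-fold higher on HFD (1.87 to 3.64), and the Cd9-negative ratio was 1.33 (0.850 to 2.08). When Cd9 was read after thinning, which counted 275 HFD macrophages as Cd9-negative, that ratio was 2.27 (1.62 to 3.23), and with all counts thinned it was 2.99 (0.887 to 12.9). Abcg1 UMIs were found in 51.3% of Cd9-positive and 17.6% of Cd9-negative macrophages on HFD, and in 10.3% and 4.93% after thinning.

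Nr1h3, the oxysterol receptor, was near the detection limit in macrophages without Cd9, with 5 UMIs on LFD (3.47 CPM) and 15 on HFD (11.2 CPM). Cd9-positive macrophages on HFD had 78 UMIs, or 49.1 CPM. All macrophages were 9.45-fold higher on HFD (3.91 to 29.8) and Cd9-negative ones 3.23-fold (1.11 to 11.3), both resting on 5 LFD UMIs. After thinning, 2.56% of the Cd9-positive and 0.985% of the Cd9-negative macrophages on HFD had a UMI, a level near that of 1 UMI from which no change is read. Fibroblasts had 31.0 CPM on LFD and 33.8 on HFD, a ratio of 1.09 (0.804 to 1.48), or 3.43 (1.28 to 10.7) from 6 and 16 UMIs after thinning. Those with Pi16 or Dpp4 had 22.1 and 26.8 CPM, and those without 48.4 and 40.8. Among groups of at least 50 cells the highest levels, 63.6 and 76.5 CPM, were in barcodes that met the endothelial and the mural rule. On LFD its interval (46.9 to 84.3) lay above that of fibroblasts (25.2 to 37.8) and overlapped that of endothelial cells (30.8 CPM, 17.9 to 49.3). On HFD it overlapped that of Cd9-positive macrophages. That group carried endothelial markers at 6392 and 6235 CPM, mural markers at 918 and 1041, and fibroblast markers at 590 and 961. Adipocyte markers stood at 963 and 365, and haemoglobin genes, which mark red cells, at 9019 and 5293. Its median depth was 13270 and 9029 UMIs, against 4317.5 and 3156 in endothelial cells. The part of these markers and of depth in the Nr1h3 level was not tested.

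Like Abcg1 but unlike Nr1h3, Soat1, which esterifies surplus cholesterol, was highest on HFD in Cd9-positive macrophages, among groups of at least 50 cells. It stood at 168 CPM in Cd9-positive macrophages on HFD, from 267 UMIs, against 53.5 CPM on LFD and 55.3 on HFD in those without Cd9. The diet ratio was 2.14 (1.67 to 2.76) over all macrophages and 1.03 (0.741 to 1.44) in Cd9-negative ones, or 1.78 (1.38 to 2.32) in those Cd9-negative after thinning. Of the 267 UMIs, 28 (10.5%) were in 1 cell. Fibroblasts had 23.1 and 32.2 CPM, a ratio of 1.39 (0.9999 to 1.94), with 1.63 (1.05 to 2.53) in those with Pi16 or Dpp4 and 1.14 (0.667 to 1.95) in those without. It was 1.89 (1.19 to 3.04) in fibroblasts below the median of the digestion genes and 0.902 (0.518 to 1.53) in those above, so no direction is read. Endothelial cells had 3 and 5 UMIs.

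Sqle, Insig1 and Srebf2, the genes of synthesis and its control, were less than 2-fold apart between diets in fibroblasts. In macrophages this held for Insig1 and Srebf2, whereas Sqle had fewer than 50 UMIs. Its ratio in all macrophages was 2.74 (1.04 to 9.12), from 27 HFD UMIs and only 5 LFD UMIs. Sqle stood in fibroblasts at 30.4 CPM on LFD (96 UMIs) and 24.8 on HFD (60 UMIs), a ratio of 0.815 (0.581 to 1.14), and barcodes that met no rule had 29.9 and 22.8. Cd9-negative macrophages had 5 Sqle UMIs on each diet and Cd9-positive macrophages 22 on HFD (13.9 CPM, 8.68 to 21.0), which overlapped the HFD fibroblasts (18.9 to 31.9). With the study's filter the fibroblast ratio was 0.442 (11 and 7 UMIs) and with thinning 0.495 (13 and 5 UMIs). Srebf2 stood at 45.6 and 36.3 CPM in fibroblasts, a ratio of 0.797 (0.604 to 1.05), with 21.5 and 20.2 in Cd9-negative macrophages, 64.0 in LFD T cells (21 UMIs) and 49.1 and 51.2 in all barcodes that met no rule. Insig1 was spread more evenly, at 41.5 and 40.9 CPM in fibroblasts and 43.8 and 50.8 in Cd9-negative macrophages, and these intervals overlapped, with 68.4 and 64.9 in barcodes that met no rule. Its fibroblast ratio was 0.986 (0.752 to 1.29) and its macrophage ratio 1.10 (0.815 to 1.51). Insig1 stood at 19.9 and 44.5 CPM in endothelial cells and at 38.4 and 15.9 in barcodes of the endothelial and mural rules, opposite directions that rest on 34 and 44 UMIs. Fibroblasts held 67.6% of all Sqle UMIs on LFD and 47.6% on HFD, and 57.1% and 37.3% of Srebf2 UMIs. Of the UMIs of all genes, the class held 43.4% on LFD and 28.9% on HFD, so its part of the library was itself smaller on HFD.

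**Figure D4:**
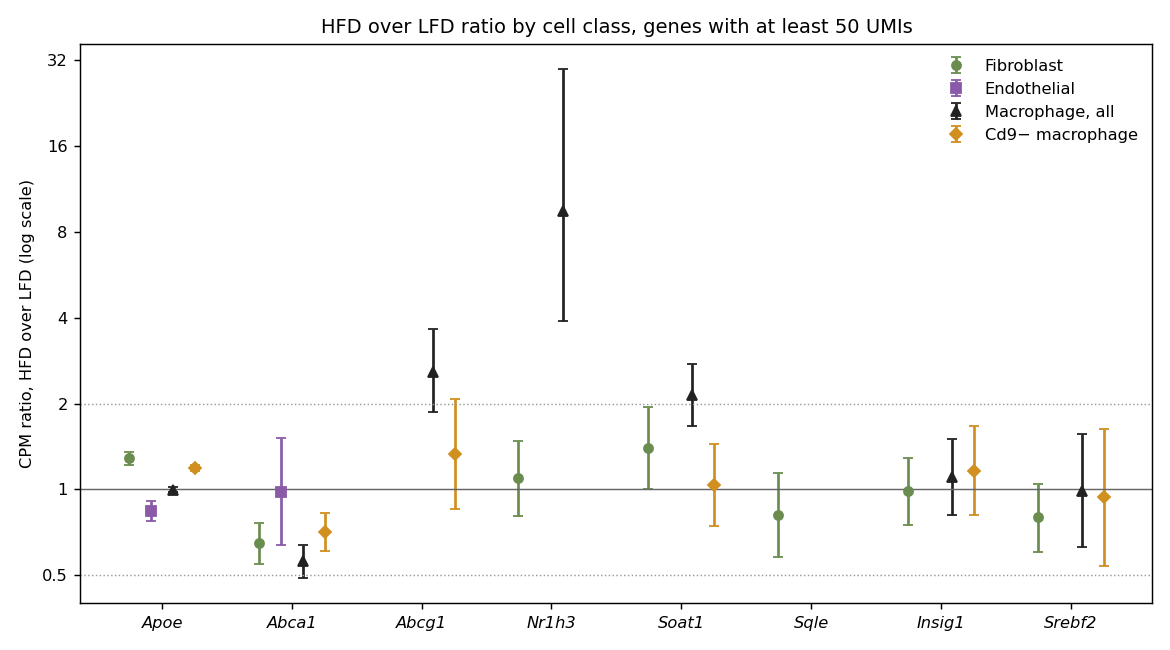
Points give the HFD over LFD ratio of CPM (y axis, log scale) for each gene with at least 50 UMIs in a class, with bars for the exact 95% interval from counting error. Abca1 lay below 1 in fibroblasts (0.648) and macrophages (0.560), and Abcg1, Nr1h3 and Soat1 lay above 2 in all macrophages.

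The genes with at least 50 UMIs over both groups compared were then counted, beside the share of all genes that were as far apart. In macrophages, 3 of 7 were higher (Abcg1, Nr1h3 and Soat1), where 5.36% of all genes were, and 0 were lower, where 5.9% were. Nr1h3 (5 and 93 UMIs) and Abcg1 (45 and 229) passed that minimum only through the HFD library, where they were high, so nothing is read from this count. In Cd9-negative macrophages 0 of 6 were higher or lower, against 1.37% and 2.37% of all genes. In fibroblasts it was 0 of 7, against 1.24% and 2.23%, and in endothelial cells 0 of 2, against 0.736% and 1.5%. The median log2 ratio of the 7 in macrophages was 0.14, beside -0.02 over the 7158 genes tested there. With the study's own filter of at most 2500 genes and under 5% mitochondrial UMIs, 49 LFD and 73 HFD macrophages were left, Abcg1 was at 1.94 (0.841 to 4.99), Soat1 at 1.25 (0.663 to 2.45), and Nr1h3 had 0 LFD UMIs against 12 on HFD. The lower limit of that Nr1h3 ratio was 1.79, and with the 0 set to the limit of 3 counts the ratio was 2.58, which leaves 1 gene past 2-fold by the ratio and 0 by the interval. In macrophages below and above the median of the digestion genes, a division made after the data were seen, Abcg1 gave 2.24 and 1.79, Soat1 2.34 and 1.31, and Nr1h3 19.3 (1 against 88 UMIs) and 1.67 (4 against 5 UMIs). Below that median lay 68 of 230 LFD and 207 of 321 HFD macrophages, and the part of digestion in these ratios was not tested beyond these values. Dendritic cell markers in all macrophages summed to 202 CPM on LFD and 74.1 on HFD. Haemoglobin genes summed to 45.1 and 114 CPM there, and to 46.5 and 187 in Cd9-negative macrophages. The part of these markers was not tested.

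Cd9-positive cells were nearly all from the HFD library, so they were compared with Cd9-negative macrophages of that same library. Abcg1 was 3.18-fold higher (2.30 to 4.46), Nr1h3 4.38-fold higher (2.50 to 8.20) and Soat1 3.04-fold higher (2.34 to 3.99). These were 3 of 7 genes, against 5.65% of all genes at least 2-fold higher, and 0 were at least 2-fold lower, against 6.65%. Nr1h3 (78 and 15 UMIs) and Abcg1 (181 and 48) reached the minimum only through the Cd9-positive cells, so here too nothing is read from the count. Insig1 and Srebf2 gave 0.879 (0.621 to 1.24) and 1.03 (0.6001 to 1.78). With the study's filter Insig1 gave 0.298 (3 and 16 UMIs) and Srebf2 had 0 and 10 UMIs, and with thinning Insig1 gave 2.23 (9 and 7 UMIs), so no direction is read for them. Sqle, with 27 UMIs, gave 3.71 (1.37 to 12.5). Trem2 stood at 1581 CPM in the Cd9-positive and 348 in the Cd9-negative cells, so both groups differed in the lipid receptor as well. The digestion genes summed to 4606 CPM in the Cd9-positive and 7562 in the Cd9-negative cells. Dendritic cell markers, of which 2 of 4 were detected, summed to 5.66 and 155 CPM, and haemoglobin genes to 52.2 and 187 CPM. The part of any of them in these ratios was not tested. The median depth was 9057 and 6460.5 UMIs, and a deeper cell is more likely to show a Cd9 UMI. When the Cd9 division was made after thinning, Abcg1 gave 1.72, Nr1h3 2.23 and Soat1 2.05. With all counts thinned Abcg1 gave 1.89 (0.765 to 4.73), Nr1h3 2.60 (0.298 to 31.2, from 3 and 2 UMIs) and Soat1 2.60 (1.19 to 5.92). With the study's filter they gave 3.18 (1.28 to 8.57), 7.94 (1.69 to 74.5, from 10 and 2 UMIs) and 1.93 (0.894 to 4.23).

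For Abca1 and Apoe, the direction between Cd9-positive and Cd9-negative macrophages depended on how cells were weighed. The summed counts gave 0.589 (0.488 to 0.709) for Abca1 and 0.670 (0.656 to 0.685) for Apoe. With every cell thinned to the same depth they gave 1.28 (0.730 to 2.20) and 0.956 (0.898 to 1.02), and with the study's filter, which left 26 and 47 cells, 2.41 (1.42 to 4.17) and 1.91 (1.81 to 2.02). No direction is therefore read for these 2 genes.

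Grouped by Cd9 UMIs, with bounds set after the data were seen, the HFD macrophages had higher summed levels of Abcg1, Soat1 and Nr1h3 in each group than in the one before, but not at equal depth. At 0, 1 to 2, 3 to 5 and 6 or more Cd9 UMIs, Abcg1 stood at 35.9, 62.2, 99.7 and 135 CPM. Soat1 stood at 55.3, 65.2, 123 and 215 CPM and Nr1h3 at 11.2, 17.8, 49.8 and 59.6 CPM. After thinning to 1000 UMIs the same groups gave 54.2, 44.4, 37.0 and 200 CPM for Abcg1 and 59.1, 111, 222 and 156 CPM for Soat1. For Nr1h3 they gave 9.85, 0, 0 and 66.7 CPM. No steady order was left, and each thinned group with Cd9 held 9 or fewer cells with a UMI of the gene. In summed counts, Apoe was 13681, 12327, 12588 and 7196 CPM, and Abca1 208.5, 142, 104 and 121 CPM. The groups held 204, 45, 27 and 45 cells, and those with Cd9 had median depths of 6363, 8341 and 14525 UMIs, so depth moved with Cd9. Insig1 was 50.8, 77.0, 46.0 and 33.3 CPM and Srebf2 20.2, 14.8, 26.8 and 21.2 CPM, without a steady order.

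**Figure D5:**
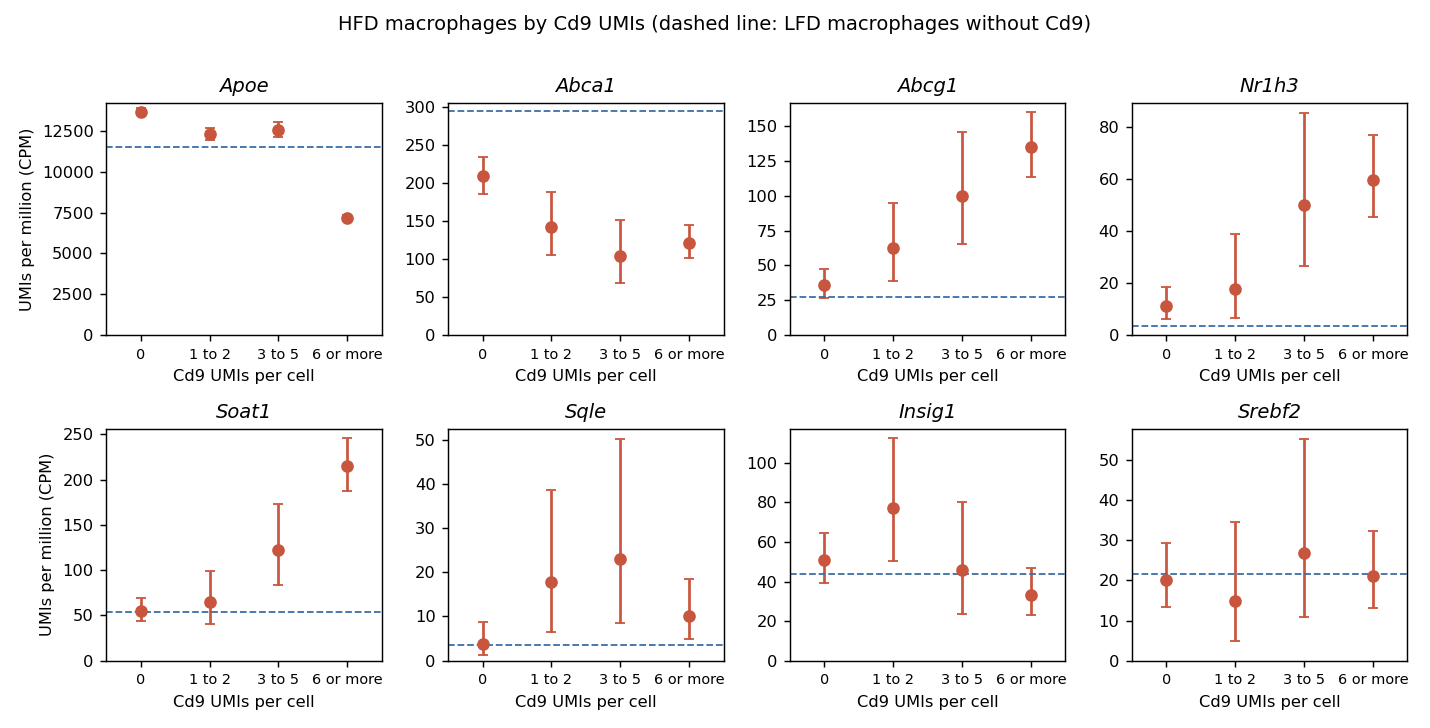
Each panel gives the level of 1 gene (CPM, y axis) in HFD macrophages by the number of Cd9 UMIs per cell (x axis), with exact Poisson 95% bars. The dashed line marks LFD macrophages without Cd9, where Soat1 stood at 53.5 CPM, below the 215 CPM of HFD cells with 6 or more Cd9 UMIs.

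Trem2 gave another grouping, which shares many cells with that by Cd9 and is no independent evidence. Macrophages with a Trem2 UMI, 242 of 321, were 3.52-fold higher in Abcg1 (1.97 to 6.91), 8.85-fold in Nr1h3 (2.38 to 74.1, from 91 and 2 UMIs) and 3.29-fold in Soat1 (2.08 to 5.54) than those without. These 3 genes reached 50 UMIs only through the cells with Trem2, whose median depth was 7385 against 5634 UMIs, and the part of depth was not tested. On LFD, where 78 of 230 macrophages had one, Abcg1 was at 0.611 and Soat1 at 1.10. Apoe was higher in cells with Trem2 on both diets, by 1.41-fold on HFD and 1.67-fold on LFD.

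The same pathways were also described by 4 lists, which hold these 8 genes too and share some genes, with the same minimum of 50 UMIs over both groups. Several reached it only through the group where they were high, such as Fdps (16 LFD and 70 HFD UMIs) and Sc5d (16 and 59) in macrophages, so the counts and medians below describe the lists and nothing further is read from them. Of 24 genes of sterol synthesis and uptake, 11 had enough UMIs in macrophages, all 11 were above the LFD level and 1 was at least 2-fold higher (5.36% over all genes), with a median log2 ratio of 0.69 beside -0.02 over all genes. Fdps, which makes farnesyl diphosphate, gave 2.22 (1.28 to 4.10), and Sc5d, a late sterol desaturase, 1.87 (1.06 to 3.49). In Cd9-negative macrophages 0 of 7 were at least 2-fold apart (1.37% higher and 2.37% lower over all genes) and the median was 0.27. Between Cd9-positive and Cd9-negative macrophages on HFD, 2 of 11 were at least 2-fold higher (5.65% over all genes), among them the synthase Hmgcs1 at 2.49 (1.49 to 4.29). In fibroblasts 0 of 19 were at least 2-fold apart (1.24% higher and 2.23% lower over all genes), with a median of -0.02.

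Of 16 receptor targets and efflux genes, 10 were measured in macrophages, of which 2 were at least 2-fold higher (Abcg1 and Nr1h3, which passed the minimum only through HFD) and 1 lower, against 5.36% and 5.9% of all genes, with a median of -0.10. The lower one was Mylip, a ubiquitin ligase, at 0.438 (0.349 to 0.551). Between Cd9-positive and Cd9-negative macrophages, 4 of 9 were at least 2-fold higher and 2 lower, against 5.65% and 6.65% of all genes, with a median of -0.58 beside 0.01 over all genes. The 4 (Abcg1, Nr1h3, Scd1 and Lpcat3) reached 50 UMIs only through the Cd9-positive cells. The phospholipid remodelling enzyme Lpcat3 gave 2.08 (1.38 to 3.20) and the desaturase Scd1 2.53 (1.67 to 3.93), against 0.379 for Mylip and 0.403 for Arl4c. In fibroblasts 0 of 11 were at least 2-fold apart, near the 1.24% and 2.23% of all genes. In endothelial cells 3 of 9 were at least 2-fold lower (1.5% over all genes), Fasn at 0.104 (0.0404 to 0.226) and Scd1 at 0.177 (0.128 to 0.239) among them, where adipocyte markers stood at 1274 CPM on LFD and 405 on HFD. The part of adipocyte RNA in these values was not tested.

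Of 17 genes of ester, lysosomal and oxysterol handling, 13 were measured in macrophages, 3 at least 2-fold higher and 1 lower, against 5.36% and 5.9% of all genes, with a median of 0.52. Besides Soat1 these were the ester hydrolase Nceh1 at 3.48 (2.78 to 4.42) and the lysosomal lipase Lipa at 2.90 (2.59 to 3.26). The sterol hydroxylase Cyp27a1 was the lower one, at 0.413 (0.307 to 0.553). In Cd9-negative macrophages 1 of 11 was at least 2-fold higher (1.37% over all genes), Gramd1a at 2.04 (1.14 to 3.76), and Nceh1 gave 1.90 (1.44 to 2.53), while Cyp27a1 gave 0.548 (0.388 to 0.768) and the fatty acid receptor Cd36 0.590 (0.543 to 0.641). Between Cd9-positive and Cd9-negative macrophages 6 of 12 were at least 2-fold higher (5.65% over all genes), with Lipa at 3.097 (2.78 to 3.46) and the lipoprotein receptor Scarb1 at 2.67 (1.36 to 5.61), while Cyp27a1 gave 0.515 (0.323 to 0.808) and Gramd1a 0.561 (0.320 to 0.967). In fibroblasts 0 of 12 were, again near those 1.24% and 2.23%. Of 12 sterol regulators, 1 of 10 in macrophages was at least 2-fold higher (5.36% over all genes). It was Nr1h3 again, which passed the minimum only through HFD, and the receptor partner Rxra gave 0.508 (0.350 to 0.736).

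Each gene was also set beside the genes with the most similar pattern over 10 groups (5 classes on 2 diets), by Pearson r of log2(CPM + 10) among 6634 genes. The closest were Madd for Apoe (0.964), Cltc for Abca1 (0.986), Ppia for Abcg1 (0.949), Extl3 for Nr1h3 (0.961), Efhd2 for Soat1 (0.955), Pygl for Sqle (0.986), Ccdc86 for Insig1 (0.981) and Fech for Srebf2 (0.989). The groups share 2 libraries and 3 of them held 6 cells or fewer. Of the 24 nearest pairs, 0 were found again over the 7 groups of at least 50 cells, and nothing further is read from these names. Among the 8 genes, Sqle and Srebf2 were most alike, with r of 0.87 over 10 groups and 0.82 over 7. Sqle had 5 or fewer UMIs in endothelial cells and in Cd9-negative macrophages on each diet, so nothing is read from this likeness either.

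On mm10 the efflux genes lie apart: Apoe at chr7:19696109-19699188 on the minus strand, Abca1 at chr4:53030787-53159895 on the minus strand and Abcg1 at chr17:31057675-31117988 on the plus strand. The receptor and esterification genes are Nr1h3 at chr2:91184061-91202834 on the minus strand and Soat1 at chr1:156424525-156474331 on the minus strand. The synthesis and control genes are Sqle at chr15:59315077-59331192 on the plus strand, Insig1 at chr5:28071363-28078662 on the plus strand and Srebf2 at chr15:82147181-82205379 on the plus strand. All are protein coding. Abcg1 overlaps the RNA gene Gm25447, Nr1h3 overlaps Gm13783 and Gm23390, Soat1 overlaps Gm37648, and Srebf2 overlaps Gm49502 and the microRNA Mir33. The effect of these overlaps on the UMI counts was not tested. Apoe, Abca1, Sqle and Insig1 overlap no annotated gene.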

How the data were processed

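The deposited tables held raw UMI counts per gene and barcode, 1 for each diet, made by the authors with Cell Ranger (3.0.2 in the file headers) on mm10. Aligner settings beyond that were not given in the sources used here. The free-text treatment protocol of both samples names only the low fat diet; diets were taken from the titles and treatment fields. Members and lists were chosen with earlier results of these data known.

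Barcodes with at least 200 genes were kept and classed by the rules in the report, and barcodes of more than 1 rule were left out. UMIs were summed per class and library and divided by the class total (CPM). Intervals for levels are exact Poisson, for shares Clopper-Pearson and for ratios exact conditional binomial, all at 95%, and cover counting error only. Genes entered a 2-fold count with at least 50 UMIs over both groups. The genes that met this were then counted under each alternative whatever UMIs were left there. List medians added 0.5 UMIs per gene. With 1 library per diet, no test was possible. Named genes were all 8 members, the 3 nearest by likeness (the nearest is printed) and, per list and class, up to 2 genes each way with a ratio of at least 1.5 (a selection is printed, and some listed genes are not reported here). Scrublet (scanpy 1.11.5) called 21 LFD and 26 HFD barcodes as doublets, which stayed in and were left out as an alternative. Thinning drew 1000 UMIs per cell. The ratio and interval code was tested on simulated data. Python 3.11.15, numpy 2.4.6, pandas 2.3.3 and scipy 1.17.1 were used. Alternatives were another cell filter, doublets out, thinning, other class and Cd9 minimums, the mean of single-cell CPM and other UMI minimums. RefSeq promoters of GRCm38.p6 matched 6 of 8 genes.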

Additional observations from a re-analysis of the deposited data

Results flagged for a closer look

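Apoe differed between diets in opposite directions among cell classes, which is why it is given here. The HFD over LFD ratio was 1.29 in fibroblasts (1.22 to 1.36) and 1.19 in Cd9-negative macrophages (1.16 to 1.21), and 0.837 in endothelial cells (0.773 to 0.907). Within fibroblasts with and without Pi16 or Dpp4 it was 1.13 and 1.02 (0.956 to 1.09), and in endothelial cells thinned to 1000 UMIs 0.898 (0.748 to 1.08). Adipocyte markers in endothelial cells stood at 1274 CPM on LFD and 405 on HFD and haemoglobin genes at 5853 and 8006, and their part was not tested. With 1 library per diet the difference between these ratios was not tested. Over 11 other settings of filter, depth and class the fibroblast ratio ran from 1.26 to 1.51 and the endothelial ratio from 0.793 to 0.965, each on 1 side of 1 in all of them, whereas the ratio in Cd9-negative macrophages ran from 0.827 to 1.25 and was above 1 in 10 of 11.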

How the results depend on the processing

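With 1 library per diet no setting carries a test. Abca1 in macrophages stayed below 1 in all 11 other settings (0.528 to 0.610), and Abca1 in fibroblasts too (0.601 to 0.849). With the study's filter, at least 2-fold higher genes in macrophages numbered 1 instead of 3 (Nr1h3, with 0 LFD UMIs set to the limit of 3), the lower ones 1 in fibroblasts, 1 in Cd9-negative macrophages and 2 between Cd9-positive and Cd9-negative macrophages (0 in each before), Soat1 was 1.25 in macrophages and 1.93 between the Cd9 groups, and Abca1 there was 2.41. With cells thinned to 1000 UMIs, Nr1h3 (6 LFD and 16 HFD UMIs) was at least 2-fold higher in fibroblasts and Sqle (13 and 5) lower. Abcg1 (4 and 11 UMIs) was at least 2-fold higher in Cd9-negative macrophages. Thinned Abcg1 in all macrophages was 4.04, and between the Cd9 groups Abca1 was 1.28 and Abcg1 1.89. The mean of single-cell CPM left 1 gene higher in macrophages, with Soat1 at 1.65. The share of all genes as far apart was not counted under these settings or the study's filter. Nothing is therefore read from the counts they gave. Dividing by Cd9 after thinning gave 0.710 for Abca1, 1.72 for Abcg1, 2.23 for Nr1h3 and 2.05 for Soat1. In macrophages above the median of digestion genes (chosen after seeing the data), Abca1 was 0.798, Abcg1 1.79, Nr1h3 1.67 and Soat1 1.31. A minimum of 20 UMIs in place of 50 moved the genes at least 2-fold higher to 222 in fibroblasts, 160 in endothelial cells, 647 in macrophages and 192 in Cd9-negative macrophages, and the lower ones to 425, 213, 691 and 353. A minimum of 100 gave 6 higher in endothelial cells and 35 in Cd9-negative macrophages, and 81, 19, 280 and 60 lower in the same order of classes. The sterol synthesis median in endothelial cells (0.73, 1 gene) was 0.17 with at least 10 UMIs and 0.10 with no minimum, the regulator median there was -0.048 with no minimum (0.35), and the ester list in macrophages 0.25 with no minimum (0.52). Causes were not tested. No paired analysis was possible because each diet had 1 library. Genes under about 10 UMIs in a class, such as Nr1h3 in LFD Cd9-negative macrophages (5 UMIs), are limited by depth.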
